A study of Mus musculus with 12 samples.

Results

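At embryonic day E11.5 the first neurons of the mouse cerebral cortex can be sorted away from the dividing cells below them, and the genes that separated both fractions are described here. The comparison set the cells that carried EGFP under the *Ebf2* regulatory sequences (Ebf2-EGFP+) against the cells without EGFP (Ebf2-EGFP-). Its 4 libraries, 2 of each population, were taken from the 12 libraries of the series by stage and sort label alone, with no measured value used. All cells came from dissected cerebral cortex of the mouse strain Tg(Ebf2-EGFP)FB58Gsat, in which a bacterial artificial chromosome drives EGFP, and both populations of a replicate carried that transgene. Embryos were pooled before dissociation and sorting, so that each library is an average over embryos. The series also holds the same populations at E13.5 and E15.5, and the E13.5 libraries were used for 1 comparison between stages. The transgene marks cells by the activity of 1 gene. The Ebf2-EGFP- fraction is everything else in the dissected tissue, including radial glia and any blood, vessel or neighbouring brain cells without EGFP. How intermediate progenitors were divided between the fractions was not measured, and their factor *Eomes* was higher in Ebf2-EGFP+ cells.

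The preplate is the earliest layer of postmitotic neurons in the cortical wall. It forms above the ventricular zone, where radial glia divide, and is later split by the cortical plate into a marginal zone, which holds the Cajal-Retzius neurons, and the subplate. Cajal-Retzius neurons secrete reelin, which directs the layering of later neurons, and subplate neurons send early axons out of the cortex. Becoming such a neuron involves leaving the cell cycle, losing the Notch-dependent progenitor state, switching on proneural transcription factors, and building an axon, adhesion molecules and synapses.

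Levels were given as FPKM, fragments scaled by transcript length and by mapped fragments, for 4859 coding genes and 200 lncRNA transcripts that the authors had selected as differential on these same libraries. Differences are Ebf2-EGFP+ minus Ebf2-EGFP- means of log2(FPKM + 1). The standard error (SE) is that of a limma fit of all 12 libraries without pairing of replicates. A gene is called higher or lower where the adjusted p-value of that fit was under 0.05. A fit with a replicate block pairs libraries of the same number, and is given where it changed the call of a named gene. Because the tables were selected on these libraries, a large share of any gene list is called, and counts below are to be read against the share of the whole table: 36.8% of the 4859 coding genes were called higher (1788 genes) and 44.9% lower (2184 genes), with a median log2 difference of -0.19. Replicates correlated across coding genes at 0.992 in Ebf2-EGFP+ and 0.989 in Ebf2-EGFP- cells, and libraries of different populations at 0.720 to 0.735. The 10 most abundant genes held 18.0% to 19.9% of the summed FPKM in Ebf2-EGFP+ libraries and 12.2% in both Ebf2-EGFP- libraries. Scaling the libraries by median of ratios raised the coding differences by a median of 0.23 on the log2 scale and moved the calls to 1967 higher and 1984 lower. In these bulk samples, fewer cells of a type and less RNA per cell cannot be told apart.

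The Ebf2-EGFP+ fraction was marked by genes of newborn glutamatergic preplate neurons, and the Ebf2-EGFP- fraction by progenitor, ventral telencephalic and blood genes. Some genes known from the thalamus and hypothalamus were higher in Ebf2-EGFP+ cells too. Of the 20 genes on that list only 4 were in the table, of which 2 were higher and 2 lower. Their summed FPKM was 77.9 and 81.7 against 16.5 and 16.2. Most of the sum in Ebf2-EGFP+ libraries came from *Lhx9* alone, which is also counted below as a forebrain patterning factor. All 5 preplate markers were higher in Ebf2-EGFP+ cells, with log2 differences from 4.76 to 6.34. Genes of DNA replication, mitosis and radial glia identity were lower in every member in the table, and genes of the neuronal cytoskeleton were higher in every member. Synaptic, adhesion, axon guidance and ion channel genes were mostly higher, while the Wnt, FGF, Hedgehog and BMP pathways, the extracellular matrix and glycolysis were mostly lower.

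*Tbr1*, a T-box transcription factor of early-born cortical neurons (chr2:61802863-61814114 in GRCm38), measured 268 and 268 FPKM in the Ebf2-EGFP+ libraries and 2.49 and 2.17 in the Ebf2-EGFP- libraries, a log2 difference of 6.34 (SE 0.20, limma adjusted p = 5.91e-09), the largest in the table. *Calb2*, which encodes the calcium buffer calretinin (chr8:110142526-110168212), measured 65.9 and 51.2 against 0.253 and 0.15 FPKM, a difference of 5.62 (SE 0.21). *Nxph4*, a secreted neurexophilin that binds neurexins (chr10:127525473-127534559), measured 114 and 104 against 1.57 and 1.38 FPKM (5.48, SE 0.38). Each of these genes was at most a few FPKM in both Ebf2-EGFP- libraries and more than 50 in both Ebf2-EGFP+ libraries. The basic helix-loop-helix factor *Nhlh2* (chr3:102010111-102015492) measured 107 and 83.7 against 1.85 and 1.31 FPKM (5.22, SE 0.28). *Ebf2* itself (chr14:67233292-67430952), whose regulatory sequences drive the sorting marker, measured 61.2 and 49.1 against 1.17 and 0.952 FPKM (4.76, SE 0.25), in the direction of the sort labels. The groups did not overlap for any of the 5 markers, which was common in the table. Of its 4859 coding genes, 2067 had both Ebf2-EGFP+ libraries above both Ebf2-EGFP- libraries, 2433 the reverse, and only 359 overlapped.

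**Figure D1:**
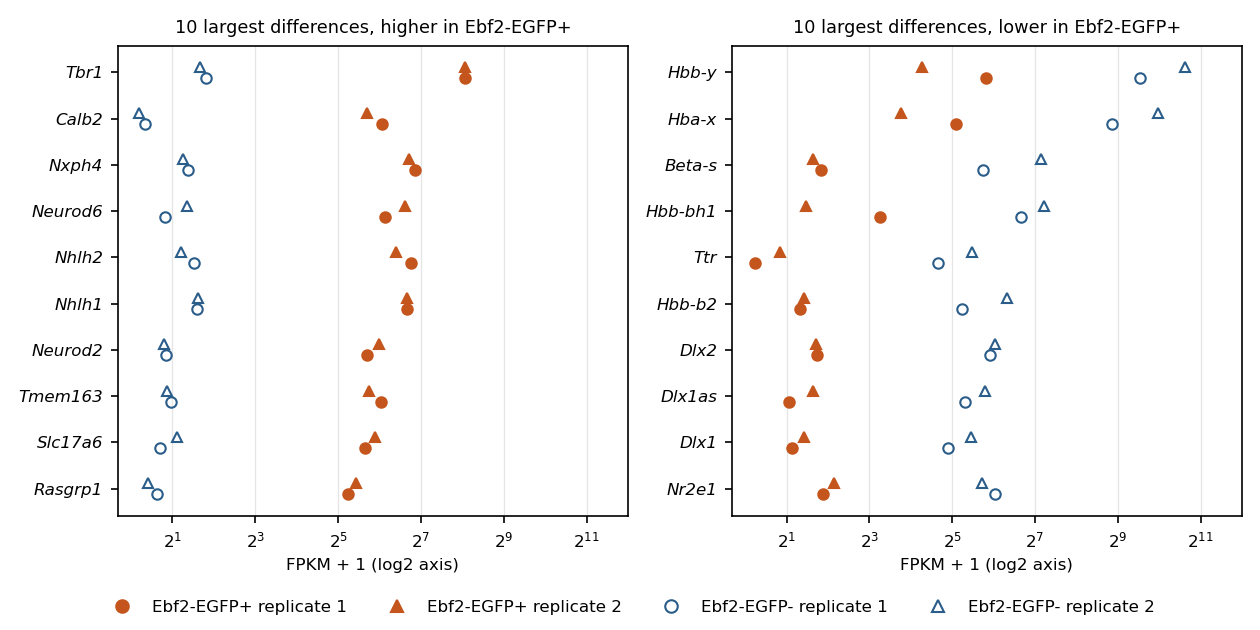
FPKM + 1 in each of the 4 libraries at E11.5, on a log2 axis, for the 10 coding genes with the largest difference in each direction. Filled symbols are Ebf2-EGFP+ and open symbols Ebf2-EGFP- libraries, circles replicate 1 and triangles replicate 2. Only called genes without overlap between the populations were eligible, so the lack of overlap in these 20 genes was set by that choice. Replicates of the globin genes lie farther apart than those of the other genes.

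The other genes among the 10 largest positive differences were the neurogenic factors *Neurod6*, *Nhlh1* and *Neurod2*, the zinc transporter *Tmem163*, the vesicular glutamate transporter *Slc17a6* and the Ras activator *Rasgrp1*. *Neurod6* measured 69 and 97 FPKM in Ebf2-EGFP+ and 0.779 and 1.54 in Ebf2-EGFP- libraries, a log2 difference of 5.28 (SE 0.22). *Slc17a6*, which loads glutamate into synaptic vesicles, measured 49.3 and 58 against 0.622 and 1.15 FPKM (4.87, SE 0.25). *Rasgrp1* measured 36.6 and 41.8 against 0.55 and 0.327 FPKM (4.81, SE 0.23). All 3 were near or under 1.5 FPKM outside the Ebf2-EGFP+ fraction.

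Of the proneural cascade, the chain of transcription factors and their targets that turns a progenitor into a neuron, 13 of 20 members in the table were higher, 0 lower and 7 not called (median log2 difference 1.16), and at an unadjusted limma p under 0.05 14 were higher and 0 lower. Late members of the cascade had larger differences than the early members named here. *Neurog2* and *Neurog1*, which act in cells committing to neurogenesis, differed by 0.68 (limma adjusted p = 0.14) and 0.86 (adjusted p = 0.0606) and were not called. In the limma fit with the replicate block both were called higher (adjusted p = 0.000424 and 0.00569). *Eomes*, the T-box factor of intermediate progenitors, measured 142 and 139 against 8.08 and 11.7 FPKM, a difference of 3.72 (SE 0.30). *Neurod1* measured 70.4 and 62 against 1.56 and 2.23 FPKM (4.54, SE 0.39), and *Neurod2* reached 5.01 (SE 0.23). *Hes6* (0.57), *Gadd45g* (0.13) and *Btg2* (-0.24), known from cells about to become neurons, were not called, of which *Hes6* was with the replicate block (limma adjusted p = 0.000588). The block raised the number of called members of this list from 13 to 17.

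Among transcription factors of neuronal identity and cortical layers, 33 of 50 were higher, 4 lower and 13 not called (median 1.38). *Nhlh1* (101.2 and 100.3 against 2.04 and 2.06 FPKM) followed *Tbr1* and *Nhlh2* in size, with a difference of 5.06 (SE 0.48). Broad neuronal factors such as *Myt1l* (2.81) and *Scrt2* (2.85) were higher by more than 2.5 on the log2 scale. Of factors that mark layers later, *Bcl11b*, of deep-layer projection neurons, was higher by 1.39 (SE 0.44), while *Fezf2* (0.08), *Cux2* (0.30) and *Sox5* (-0.14) were not called. The 4 lower members were *Npas3* (-1.32), *Isl1* (-1.11), *Ebf4* (-0.60) and *Cux1* (-0.56). The calls of *Ebf4* and *Cux1* were lost after median-of-ratios scaling, with limma adjusted p = 0.0635 and 0.271. Without replicate 1 of Ebf2-EGFP+ or replicate 2 of Ebf2-EGFP- cells that of *Ebf4* was lost too (limma adjusted p = 0.137 and 0.112), and that of *Cux1* without any 1 of the 4 libraries (adjusted p = 0.0696 to 0.173). *Ebf4* thus stood apart from *Ebf2* (4.76), *Ebf3* (3.96) and *Ebf1* (1.43) of the same family.

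The forebrain patterning factors, which set up regions of the early telencephalon, were divided: 10 of 43 were higher, 16 lower and 17 not called, and their median log2 difference of -0.25 became 0.01 after scaling. *Lhx9*, a LIM homeodomain factor, measured 71.3 and 74.9 against 1.85 and 2.3 FPKM (4.59, SE 0.40) and was followed by *Fezf1* (1.92), *Pbx3* (1.83) and *Nfib* (1.17). The lower members were led by *Tcf7l1* (-3.04), *Gli3* (-2.42) and *Otx2* (-2.40). The dorsal telencephalic factor *Emx2* (0.08) was not called, whereas *Emx1* was higher by 0.92 (SE 0.31).

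Genes known from Cajal-Retzius neurons and from the subplate were higher together at this stage. Of the Cajal-Retzius list, 14 of 20 were higher, 3 lower and 3 not called (median 1.74), and of the subplate list 14 of 19 were higher, 3 lower and 2 not called (median 1.62). *Reln*, which encodes reelin, measured 75.9 and 76.3 against 2.98 and 2.79 FPKM, a difference of 4.31 (SE 0.33). *Trp73*, the p53 relative of Cajal-Retzius neurons, measured 32.7 and 36.9 against 0.898 and 0.847 FPKM (4.25, SE 0.19). *Tmem163* measured 65.2 and 52.5 against 0.967 and 0.817 FPKM (4.98, SE 0.25). The groups did not overlap for any of these 3 genes, as for most of the coding table. The Cajal-Retzius members that were lower included *Zic4* (-0.67) and *Zic5* (-0.69), zinc finger factors of the midline and septum, and both calls were lost after scaling (limma adjusted p = 0.0550 and 0.0959). Leaving out Ebf2-EGFP- replicate 2 lost both calls as well (limma adjusted p = 0.0882 and 0.190), as did leaving out Ebf2-EGFP+ replicate 1 (adjusted p = 0.0736 and 0.157). *Zic1* (-0.50), *Zic2* (-0.14) and the late marker *Ndnf* (-0.25) were not called, except *Zic1* with the replicate block (limma adjusted p = 0.0168). On the subplate side, the calcium sensor *Syt4* (27.8 and 21.4 against 2.48 and 2.37 FPKM, 2.89), the zinc finger factor *St18* (2.11) and the sodium-calcium exchanger *Slc8a2* (2.09) led. *Ctgf* (-2.19) and *Lpar1* (-2.12), markers of the mature subplate, and *Lmo3* (-0.86) were lower.

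**Figure D2:**
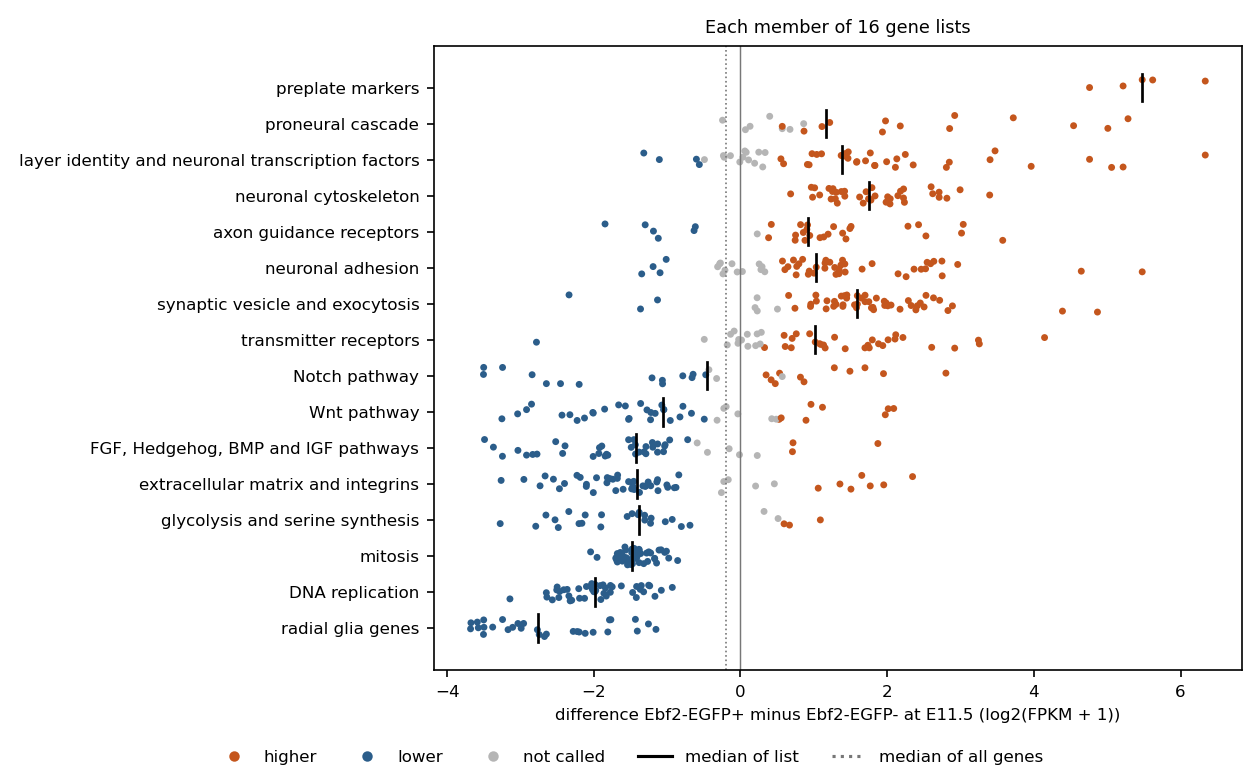
Difference between the populations at E11.5 for each member of 16 gene lists, in log2(FPKM + 1). Each point is 1 gene, coloured by its call, black bars are list medians and the dotted line is the median of all coding genes (-0.19). Members of the cytoskeleton list lie to the right of 0 and those of the mitosis, DNA replication and radial glia lists to the left.

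Cell division genes were lower in Ebf2-EGFP+ cells as complete lists. All 45 DNA replication genes and all 51 mitosis genes in the table were lower, with log2 differences from -3.14 to -0.93 and from -2.04 to -0.86 and medians of -1.98 and -1.48. Summed over the DNA replication list, FPKM was 630 and 604 in Ebf2-EGFP+ against 2750.2 and 2429.9 in Ebf2-EGFP- libraries. *Mcm3*, a subunit of the replicative helicase, measured 11.8 and 11.1 against 121 and 98.6 FPKM, a difference of -3.14 (SE 0.32). The origin licensing factors *Cdc6* (-2.65) and *Cdt1* (-2.57) and the thymidine kinase *Tk1* (-2.64) came next. Within the mitosis list the largest differences belonged to *Esco2*, which establishes sister chromatid cohesion (2.29 and 2.26 against 12.2 and 12.7 FPKM, -2.04), the kinetochore subunit *Spc24* (-1.96) and the condensin subunits *Ncapg* (-1.70) and *Ncaph* (-1.69). Transcripts of neither list were absent from the Ebf2-EGFP+ fraction: the mitosis genes summed to 907 and 823 FPKM there, against 2478.7 and 2269.5 in Ebf2-EGFP- libraries.

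Of cyclins, cyclin-dependent kinases and the E2F and RB families, 26 of 32 were lower, 3 higher and 3 not called. The cyclin *Ccnd1*, which carries cells through G1, measured 30.7 and 24 against 182 and 133 FPKM (-2.48, SE 0.28), and *Mybl2* (-2.44), *Rbl1* (-2.42) and *Cdk2* (-2.40) fell by a similar amount. Of the 3 higher members, *Cdk5r1* (2.16) and *Cdk5r2* (1.72) activate the postmitotic kinase Cdk5, and *Rb1* (1.05) restrains E2F in the cell cycle. Its relative *Rbl1* moved in the opposite direction. Among inhibitors and exit genes, 8 of 12 were higher, 1 lower and 3 not called. *Cdkn1a*, the inhibitor p21, measured 36.4 and 29 against 1.7 and 1.17 FPKM (3.79, SE 0.34), followed by *Trp53inp1* (1.90), *Plk2* (1.59) and *Gadd45a* (1.44), all known to respond to p53. The inhibitor *Cdkn1c* was higher by 0.81 and *Cdkn2c* lower (-1.14). Of the centrosome and microcephaly genes, 16 of 19 were lower, led by *Nde1* (-1.88), and the only higher member was *Akna* (1.69), a centrosomal protein of cells leaving the ventricular zone.

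The promoters of these division genes were set beside each other because the lists moved together. RefSeq windows (GRCm38.p6) covering the 250 bases before the start were matched by symbol for 38 of 45 DNA replication and 41 of 51 mitosis genes, and a gene with several windows counted once. The CCAAT box was searched on both strands. It occurred before 28 of 41 mitosis genes (68.3%) and 23 of 38 DNA replication genes (60.5%), against 41.6% of the coding table, 44.7% of its lower genes and 37.5% of all 27025 genes with a window. TTTGAA, the core of the cell cycle homology element, occurred before 34.1% of mitosis genes, 15.8% of DNA replication genes, 13.3% of the coding table, 15.1% of its lower genes and 18.3% of all genes, and its variant TTCGAA before 4.88%, 5.26%, 2.56%, 2.84% and 1.55%. The E2F core GGCGGGAA was found before 10.5% of DNA replication genes (4 of 38) and 0 of 41 mitosis genes, against 4.41% of the coding table, 5.5% of its lower genes and 2.13% of all genes. These are matches of letters in a window and no evidence of binding. The last 150 bases before the start are printed for 4 mitosis genes with CCAAT and TTTGAA there and for 2 DNA replication genes with the E2F core and CCAAT there, as examples of that arrangement. They were chosen by their letters among genes with a single window, whatever their place in the naming rule, and read 5′ to 3′ on the gene's strand, with matches on either strand in capitals.
Cdk1: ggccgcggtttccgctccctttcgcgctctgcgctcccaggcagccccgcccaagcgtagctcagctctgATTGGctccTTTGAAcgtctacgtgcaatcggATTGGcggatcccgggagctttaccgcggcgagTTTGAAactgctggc
Cdc20: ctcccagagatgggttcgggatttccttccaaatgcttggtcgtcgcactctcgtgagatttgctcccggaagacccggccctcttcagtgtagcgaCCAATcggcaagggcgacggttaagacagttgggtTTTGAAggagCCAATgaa
Kif11: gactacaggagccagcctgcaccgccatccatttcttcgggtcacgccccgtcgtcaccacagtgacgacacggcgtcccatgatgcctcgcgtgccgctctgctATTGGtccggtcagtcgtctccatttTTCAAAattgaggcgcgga
Espl1: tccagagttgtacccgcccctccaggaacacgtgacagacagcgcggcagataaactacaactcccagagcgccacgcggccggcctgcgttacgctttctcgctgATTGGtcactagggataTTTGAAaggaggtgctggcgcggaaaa
Rrm1: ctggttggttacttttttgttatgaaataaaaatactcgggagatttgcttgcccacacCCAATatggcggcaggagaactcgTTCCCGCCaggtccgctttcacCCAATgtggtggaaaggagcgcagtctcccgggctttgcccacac
Chaf1a: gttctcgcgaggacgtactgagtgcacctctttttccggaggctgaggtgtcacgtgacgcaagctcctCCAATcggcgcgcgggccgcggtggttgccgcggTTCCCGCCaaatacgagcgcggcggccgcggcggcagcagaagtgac

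These windows lie at chr10:69352913-69353062 (minus strand) for *Cdk1*, the mitotic kinase, chr4:118437344-118437493 (minus) for *Cdc20*, an activator of the anaphase-promoting complex, chr19:37376232-37376381 (plus) for *Kif11*, a spindle motor, and chr15:102296143-102296292 (plus) for *Espl1*, the separase that cuts cohesin. The TTTGAA nearest to the start lay, on either strand, from 15 to 27 bases before it in these 4 windows, and that of *Cdk1* holds another 71 bases before the start. Of the mitosis windows with both motifs that are not printed, those of *Mki67*, *Ncapd2* and *Smc2* hold it farther away, from 98 to 145 bases before the start. *Cdk1* measured 13 and 10.5 against 36.7 and 30.8 FPKM (-1.45), *Cdc20* 38.3 and 30.8 against 91.1 and 78.9 (-1.28), *Kif11* 15.3 and 13.52 against 49.4 and 43.5 (-1.62), and *Espl1* 6.1 and 5.73 against 19.3 and 17.3 (-1.48). The windows of *Rrm1*, a ribonucleotide reductase subunit (chr7:102441545-102441694, plus), and *Chaf1a*, a subunit of the chromatin assembly factor (chr17:56040266-56040415, plus), hold the E2F core 67 and 47 bases before the start. *Rrm1* measured 48 and 44.5 against 128 and 114 FPKM (-1.37) and *Chaf1a* 11.53 and 13 against 55.2 and 50.9 (-2.03).

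Of the 5 preplate markers, *Tbr1* and *Nhlh2* had a window. Neither held the EBF motif TCCCNNGGGA, which occurred before 1.85% of the higher and 1.24% of the lower coding genes and 0.914% of all genes. The E-box CAGATG, of the kind that NEUROD factors bind, lies 127 bases before the start of *Nhlh2* (chr3:102009995-102010144, plus), the window shown here with the E-box in capitals.
Nhlh2: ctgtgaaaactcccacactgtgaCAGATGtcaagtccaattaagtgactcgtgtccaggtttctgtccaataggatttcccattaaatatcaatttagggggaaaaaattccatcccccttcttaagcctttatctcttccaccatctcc

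Over the coding table, CAGATG occurred before 13.9% of higher and 11.2% of lower genes, and the E-box CAGCTG before 20.9% and 12.6%, against 16.3% and 14.7% of all genes. A match in any window of a gene counted, and higher genes had more windows per gene. There were 1840 windows for 1296 higher genes, 2044 for 1618 lower genes and 32851 for all 27025 genes. The shares, also those of the EBF motif, were not adjusted for this.

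All 30 radial glia genes in the table were lower in Ebf2-EGFP+ cells, with a median log2 difference of -2.76, the lowest of all lists. *Ednrb*, an endothelin receptor of progenitors, measured 0.776 and 0.71 against 25.6 and 17.7 FPKM (-3.68, SE 0.23). The chromatin protein *Hmga2* (9.19 and 10.5 against 161 and 117 FPKM, -3.67), the lipid carrier *Fabp7* (16.4 and 16.6 against 224 and 196 FPKM, -3.59) and *Sox2* (-3.57) followed. *Nr2e1*, a nuclear receptor of neural stem cells that was among the 10 largest negative differences of the table, measured 2.68 and 3.45 against 64.3 and 51.9 FPKM (-3.86, SE 0.33). *Vim* (-1.15) and *Pax6* (-1.79) differed less.

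The Notch pathway, through which neighbouring cells keep each other in the progenitor state, had members on both sides of the comparison. Of 28 members, 14 were lower (50%), 11 higher (39.3%) and 3 not called (median -0.45), shares close to those of the whole table. The receptors *Notch1* (-2.20), *Notch2* (-2.65) and *Notch3* (-3.24) were lower, and so were the effectors *Hes1* (2.79 and 1.98 against 41.2 and 33.4 FPKM, -3.50) and *Hes5* (4.99 and 3.28 against 61.9 and 51.2 FPKM, -3.50) and the feedback inhibitor *Nrarp* (-2.84). The ligands and ligand-like proteins *Dner* (83.8 and 74.5 against 11.2 and 9.79 FPKM, 2.80), *Dll3* (1.70), *Jag2* (1.49) and *Dll1* (0.53) were higher, as was the E3 ligase *Dtx1* (1.95). *Jag1* (-0.32) was not called. The fringe *Lfng* (-2.45) and the fringe *Mfng* (0.87), which modify the receptors, moved in opposite directions.

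Signals that pattern the cortex and act on progenitors were mostly lower in Ebf2-EGFP+ cells. In the Wnt pathway 28 of 42 members were lower, 8 higher and 6 not called (median -1.06). The secreted enhancer *Rspo1* (2.02 and 1.97 against 26.7 and 28.4 FPKM, -3.25), the transcription factor *Tcf7l1* (-3.04) and the secreted inhibitors *Sfrp2* (-2.92) and *Sfrp1* (-2.85) led. The higher members included the ligand *Wnt7b* (121 and 104 against 28.6 and 22.8 FPKM, 2.09), unlike its relative *Wnt7a* (-2.01), and the planar polarity cadherin *Celsr3* (2.01), which serves axon tracts. Of the FGF, Hedgehog, BMP and IGF pathways, 35 of 43 were lower, 3 higher and 5 not called (median -1.43). *Fgf15* measured 1.46 and 1.13 against 24.7 and 24.7 FPKM (-3.49, SE 0.19), and *Fgf17* (-3.37), *Fgfr3* (-3.25) and the BMP target *Id3* (-3.03) followed. The 3 higher members were *Igfbpl1* (1.87), *Fgf12* (0.72) and *Fgf11* (0.71), of which the last 2 belong to the intracellular FGFs that bind sodium channels. The call of *Fgf11* was lost without Ebf2-EGFP+ replicate 2 or Ebf2-EGFP- replicate 1 (limma adjusted p = 0.0846 and 0.0705).

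Of the extracellular matrix and integrin list, 40 of 52 members were lower, 7 higher and 5 not called (median -1.41). Basement membrane genes led the lower side, with *Col18a1* at 2.17 and 2.58 against 33.7 and 29.1 FPKM (-3.26, SE 0.30), *Sparc* (-2.95), *Col4a1* (-2.73) and *Lamb2* (-2.66). The higher side consisted of the proteoglycans *Spock2* (2.35), *Gpc2* (1.95), *Sdc3* (1.77), *Vcan* (1.65), *Spock1* and *Ncan*, which are part of axons and the neuronal matrix, and the integrin *Itga4*. In glycolysis and serine synthesis 23 of 28 were lower, 3 higher and 2 not called (median -1.39). *Phgdh*, which starts serine synthesis, measured 12.1 and 10.5 against 130.4 and 107 FPKM (-3.28, SE 0.33), and *Ldha*, which makes lactate, differed by -2.48. The higher members were the neuronal enolase *Eno2* (1.09), *Pdk2* (0.67) and *Hk1* (0.59), whereas their relatives *Eno1* (-1.54), *Pdk1* (-1.3) and *Hk2* (-2.16) were lower.

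**Figure D3:**
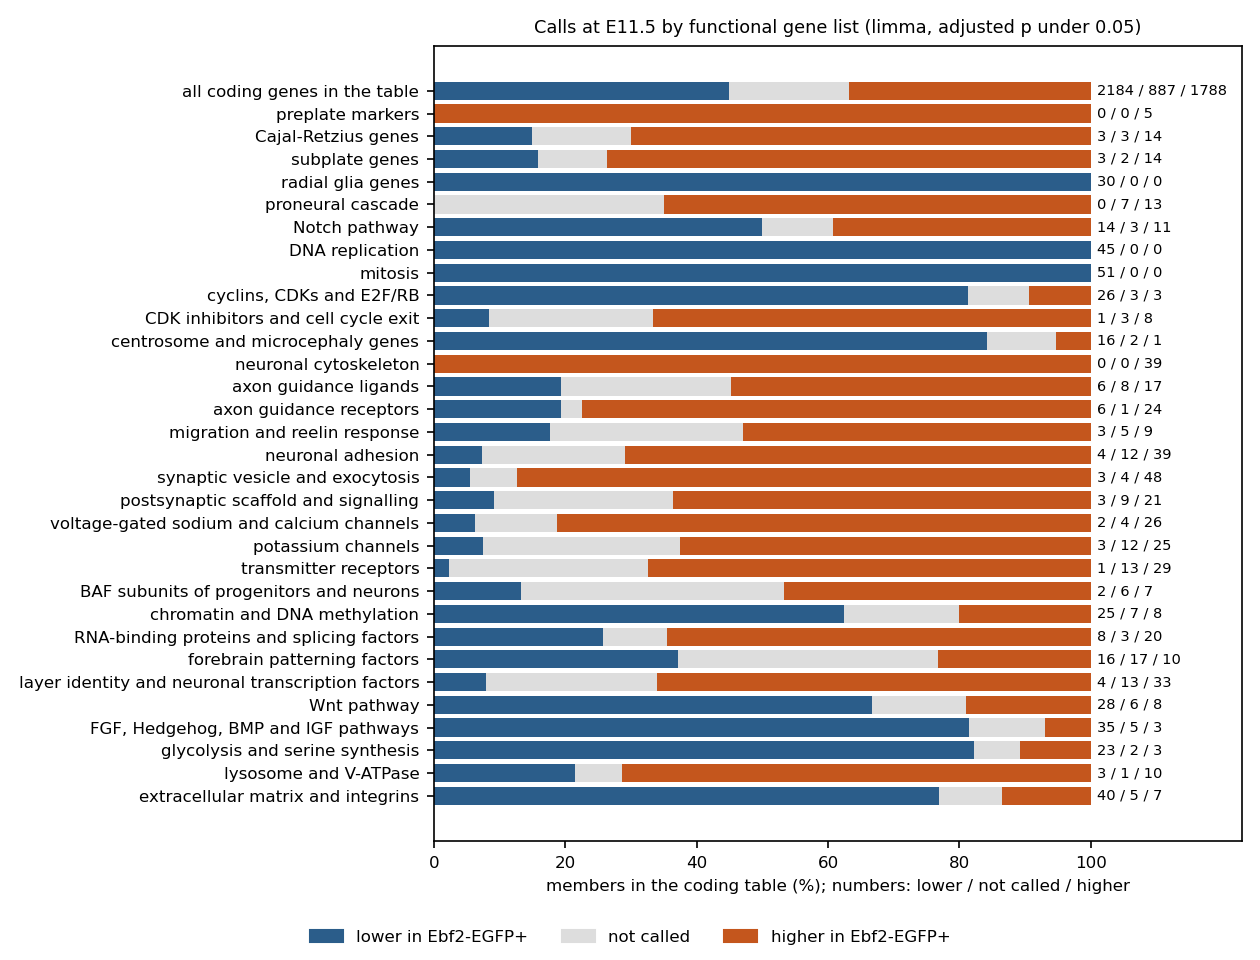
Share of the members of each gene list that were lower, not called and higher in the Ebf2-EGFP+ fraction at E11.5, in percent of the members in the coding table, with the counts at the right. The top bar is the whole table (2184 lower, 887 not called, 1788 higher). The DNA replication, mitosis and radial glia bars are entirely lower and the cytoskeleton bar entirely higher.

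The neuronal cytoskeleton was the functional list that was higher in every member, 39 of 39 genes with differences from 0.68 to 3.40 and a median of 1.76. Its summed FPKM was 20196 and 17638 in Ebf2-EGFP+ against 6217.7 and 6214.3 in Ebf2-EGFP- libraries. *Ina*, a neurofilament subunit of early axons, measured 361 and 298 against 30.9 and 29.6 FPKM (3.40, SE 0.19). *Ank3*, the scaffold of the axon initial segment, differed by 2.99, *Dcx*, the microtubule protein of migrating neurons, by 2.81 (300.4 and 257 against 37.3 and 39.9 FPKM), and the microtubule destabiliser *Stmn2* by 2.71. The smallest difference was that of *Dpysl2* (0.68), a collapsin response mediator, while its relative *Dpysl3* reached 2.15.

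Receptors and cues that steer axons were mostly higher in Ebf2-EGFP+ cells. Of 31 receptors 24 were higher, 6 lower and 1 not called (median 0.92), and of 31 ligands 17 were higher, 6 lower and 8 not called (median 0.88). The semaphorin coreceptor *Plxna4* measured 25.1 and 32.5 against 1.51 and 1.45 FPKM (3.58, SE 0.29), and the netrin receptor *Dcc* 118 and 115 against 13.3 and 13.3 (3.04, SE 0.16). *Rtn4rl2*, a relative of the Nogo receptor, differed by 3.01 and *Nrp2* by 2.53. The lower receptors were *Ephb4* (-1.85), *Epha4* (-1.3), *Epha2* (-1.19), *Cxcr7* (-1.12), *Ephb1* (-0.63) and *Ephb3* (-0.62), that is 5 Eph receptors and the chemokine receptor also named *Ackr3*. Among ligands *Ntng2* (2.84), *Efna3* (2.77), *Rgmb* (2.46) and *Slit1* (2.08) led the higher side, while *Ntn1*, the ligand of *Dcc*, was lower (2.58 and 2.41 against 20.1 and 13.8 FPKM, -2.34). *Slit1* also parted from *Slit3* (-0.82) and *Slit2* (-0.34, not called, but limma adjusted p = 0.0492 with the replicate block). The chemokine *Cxcl12*, which attracts Cajal-Retzius neurons to the meninges, was lower (-1.40) with limma adjusted p = 0.0149, a call lost when either replicate 1 library was left out (adjusted p = 0.0791 and 0.0767).

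Of the migration and reelin response genes, 9 of 17 were higher, 3 lower and 5 not called (median 1.02). *Plxna4*, *Rnd2* (325 and 344 against 42.2 and 49.1 FPKM, 2.85), a small GTPase of migrating neurons, *Dcx* and *Cdk5r1* led, and *Nde1*, *Fat1* (-1.40) and *Cx3cl1* (-0.94) were lower. The reelin receptors *Vldlr* (-0.27) and *Lrp8* (0.37) and the adaptor *Dab1* (-0.41) were not called, next to the ligand *Reln* at 4.31. With the replicate block *Lrp8* was called higher and *Dab1* lower (limma adjusted p = 0.0118 and 0.00283). In neuronal adhesion 39 of 55 were higher, 4 lower and 12 not called (median 1.03). After *Nxph4*, the axonal immunoglobulin protein *Cntn2*, also known as TAG-1, measured 99.7 and 106 against 3.1 and 3.2 FPKM (4.65, SE 0.26), and *L1cam* (2.96) and *Nrcam* (2.75), its partners on axons, followed. *Kirrel* (-1.35), *Nrxn3* (-1.19), *Lsamp* (-1.10) and *Alcam* (-1.01) were lower, the call of *Lsamp* being lost after scaling (limma adjusted p = 0.0518) and without Ebf2-EGFP+ replicate 2 or either Ebf2-EGFP- library (adjusted p = 0.0858, 0.0555 and 0.0512). The neurexin *Nrxn2* (1.37) was higher, unlike *Nrxn3*.

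Genes of the synaptic vesicle were already higher at this stage, 48 of 55 members with 3 lower and 4 not called (median 1.59). *Slc17a6* and *Slc17a7*, both vesicular glutamate transporters, led: *Slc17a7* measured 23.3 and 25.9 against 0.197 and 0.244 FPKM (4.39, SE 0.27). *Syt4* (2.89) and the vesicle protein *Sv2b* (2.83) followed. The 3 lower members were the GABA transporter *Slc32a1* (1.45 and 1.75 against 11.47 and 12.8 FPKM, -2.34), the monoamine transporter *Slc18a2* (-1.36) and the release factor *Cadps2* (-1.13), whose relative *Cadps* was higher (1.58). So the transporters for glutamate and those for GABA and monoamines lay on opposite sides of the comparison. On the receiving side 21 of 33 postsynaptic genes were higher, 3 lower and 9 not called (median 0.81). Phosphatase subunits *Ppp2r2c* (2.82) and *Ppp2r2b* (2.58) led, and the scaffold *Dlg2* differed by 1.73 while *Dlg1* was lower (-0.93), as were the kinase-like *Camkv* (-1.13) and the phosphatase inhibitor *Ppp1r1a* (-0.75). The call of *Ppp1r1a* was lost after scaling (limma adjusted p = 0.0555) and without any 1 of the 4 libraries (adjusted p = 0.0509 to 0.103). *Camk2b* was higher by 1.74 and *Camk2a* was not called (0.11).

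Of voltage-gated sodium and calcium channel genes, 26 of 32 were higher, 2 lower and 4 not called (median 1.03). The auxiliary calcium channel subunit *Cacna2d1* measured 36.1 and 44.8 against 2.28 and 2.66 FPKM (3.57, SE 0.26), and the sodium channel subunits *Scn3b* (2.59) and *Scn3a* (2.23), known from embryonic neurons, were higher. *Cacnb2* (-0.95) and the T-type channel *Cacna1g* (-0.77) were lower. The call of *Cacna1g* was lost after scaling (limma adjusted p = 0.104) and without replicate 1 of Ebf2-EGFP+ or replicate 2 of Ebf2-EGFP- cells (adjusted p = 0.309 and 0.198). Its relative *Cacna1h* was higher (1.98). Of 40 potassium channel genes 25 were higher, 3 lower and 12 not called, with a lower median of 0.60. *Kcnc1*, a delayed rectifier, reached 1.86, and the glial channel *Kcnj10* (-1.34) and *Kcnk1* (-0.76) were lower. Levels were low, and 8 of the 40 stayed under 1 FPKM in all 4 libraries.

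Among 43 transmitter receptor genes 29 were higher, 1 lower and 13 not called (median 1.02). The cannabinoid receptor *Cnr1*, which guides axons of early cortical neurons, measured 54.9 and 56.4 against 2.28 and 2.12 FPKM (4.15, SE 0.18). The metabotropic glutamate receptor *Grm2* measured 9.37 and 11.8 against 0.244 and 0.167 FPKM (3.26), and the nicotinic subunit *Chrna3* 17.7 and 16.9 against 0.906 and 0.954 (3.24). The somatostatin receptor *Sstr2* differed by 2.92. These receptors for different transmitters all exceeded 9 FPKM in both Ebf2-EGFP+ libraries. The only lower member was the kainate receptor subunit *Grik3* (1.5 and 1.95 against 15.3 and 20.5 FPKM, -2.78), while *Grik2* was higher (1.43). *Drd1a* was listed at 0 in both Ebf2-EGFP+ libraries.

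Chromatin and RNA-binding genes showed exchanges between relatives. Of 40 chromatin and DNA methylation genes 25 were lower, 8 higher and 7 not called (median -0.80). *Uhrf1* (-2.61) and *Hells* (-2.45), which maintain DNA methylation during replication, followed *Hmga2* among the lower ones, and the remodeller *Chd5* (6.94 and 8.56 against 0.94 and 1.26 FPKM, 2.06) and the deacetylases *Hdac5* (1.29) and *Hdac11* (0.89) led the higher ones. Of 15 subunits of the BAF remodelling complex 7 were higher, 2 lower and 6 not called. The neuronal subunit *Actl6b* was higher (50.6 and 49.5 against 6.72 and 7.91 FPKM, 2.62) and the progenitor subunit *Actl6a* lower (-0.77). In the same way *Ss18l1* was higher (1.82) and *Ss18* lower (-0.59), and *Dpf1* (1.19) and *Dpf3* (1.18) were higher while *Dpf2* was not called (-0.25, limma adjusted p = 0.0398 with the replicate block). The call of *Actl6a* was lost without replicate 2 of Ebf2-EGFP+ or replicate 1 of Ebf2-EGFP- cells (limma adjusted p = 0.0608 and 0.0541), and that of *Ss18* after scaling (adjusted p = 0.0615).

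Of 31 RNA-binding proteins 20 were higher, 8 lower and 3 not called (median 1.25). *Rbfox3*, which encodes the neuronal antigen NeuN, measured 17 and 24.6 against 0.954 and 1.75 FPKM (3.21, SE 0.28), and the neural splicing factor *Srrm4* differed by 2.23. The lower ones were led by *Qk* (28.4 and 29.6 against 137 and 112 FPKM, -2.06) of glia and progenitors, *Rbm38* (-0.90) and *Srsf2* (-0.87). Of 14 lysosome and V-ATPase genes 10 were higher, 3 lower and 1 not called, with *Lamp5*, a lysosome-related protein of cortical neurons, at 5.0 and 4.94 against 0.051 and 0.169 FPKM (2.43). *Laptm4b* (-1.24), *Cd63* (-0.99) and the glucosidase *Gaa* (-0.50) were lower, the last not after scaling (limma adjusted p = 0.148).

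The largest negative differences of the table belonged mainly to genes of blood, choroid plexus and ventral telencephalon. The embryonic globins *Hbb-y* (55 and 18.4 against 737 and 1589 FPKM, -5.04, SE 0.48), *Hba-x* (33.2 and 12.5 against 464 and 1007 FPKM, -4.99) and *Hbb-bh1* (-4.59) and the beta-globin entries *Beta-s* (-4.71) and *Hbb-b2* (-4.42) were lower. The entries *Beta-s* and *Hbb-b2* are near-identical copies, and how fragments were divided between similar globin genes is uncertain. Over the erythroid list 8 of 9 were lower and 1 not called, and its summed FPKM was 102 and 36.1 in Ebf2-EGFP+ against 1357.5 and 2899.0 in Ebf2-EGFP- libraries, with none of the 9 at 0. The choroid plexus gene *Ttr* measured 0.18 and 0.784 against 24.5 and 43.3 FPKM (-4.53, SE 0.45). Of the hem, choroid plexus and septum list 17 of 21 were lower, 0 higher and 4 not called (summed FPKM 108 and 120.3 against 271 and 308).

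Genes of the ganglionic eminences, the ventral source of GABAergic interneurons, were lower in 21 of 24 cases, with 1 higher and 2 not called (median -2.42). *Dlx2* measured 2.31 and 2.28 against 59.5 and 64.7 FPKM (-4.26, SE 0.19) and *Dlx1* 1.2 and 1.67 against 29.1 and 42.8 (-3.91, SE 0.21), and *Lhx6* (-3.68) and *Nkx2-1* (-3.66) followed. The 1 higher member was *Ebf1* (1.43), which is also on the Cajal-Retzius list. The summed FPKM of this list was 69.1 and 73.5 in Ebf2-EGFP+ against 364 and 449 in Ebf2-EGFP- libraries, and none of its members was listed at 0. So the Ebf2-EGFP- fraction, though labelled cerebral cortex, contained transcripts that define ventral telencephalon.

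Vessel, meningeal and glial markers were mostly lower as well. All 6 endothelial genes in the table were lower, but their summed FPKM was only 1.71 and 2.89 against 16.2 and 12.1, and *Cldn5* was listed at 0 in 1 Ebf2-EGFP+ library. Of the microglia list 2 genes were in the table, 1 lower (*Cd68*, -0.81) and 1 not called (*Aif1*, 0.20), with summed FPKM of 1.13 and 1.35 against 2.10 and 3.01. Of the meninges, fibroblast and pericyte list 16 of 19 were lower, 2 higher and 1 not called (summed FPKM 410.4 and 380.1 against 452 and 418), and of oligodendrocyte precursor and astrocyte genes 4 of 7 were lower, 2 higher and 1 not called (26.9 and 31.9 against 64.7 and 68.5). The higher members were *Crabp2* (0.91) and *Twist2* (0.56) of the former list and, among those of the latter, *Slc1a2* (2.30). The call of *Crabp2* was lost without any 1 of the 4 libraries (limma adjusted p = 0.0660 to 0.140), and that of *Twist2* without Ebf2-EGFP+ replicate 2 or Ebf2-EGFP- replicate 1 (adjusted p = 0.0904 and 0.0623). Of olfactory, neural crest and peripheral neuron genes 2 of 10 were higher, 5 lower and 3 not called (53.0 and 49.6 against 43.8 and 44.1), the higher ones being *Eya2* (1.84) and *Tfap2a* (1.67). Of 4 thalamic and hypothalamic genes *Lhx9* and *Sim1* (4.39 and 3.55 against 0.101 and 0.0939 FPKM, 2.17) were higher and *Tcf7l2* (-2.33) and *Irx3* (-0.70) lower (summed FPKM 77.9 and 81.7 against 16.5 and 16.2). *Lhx9* made up most of that sum in Ebf2-EGFP+ libraries. The part of blood, ventral, choroid plexus, vessel, thalamic, hypothalamic and peripheral cells in the other differences was not tested for either fraction.

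Among the 200 lncRNA transcripts, 40% were higher in Ebf2-EGFP+ cells (80 transcripts) and 32% lower (64 transcripts). After scaling the calls were 91 higher and 56 lower. *RP23-326H18.1* (chr5:110978665-110979217, within *Ttc28* on the same strand) measured 27.5 and 26.9 FPKM in Ebf2-EGFP+ and 1.95 and 1.3 in Ebf2-EGFP- libraries (3.44, SE 0.29, limma adjusted p = 3.87e-06). *Gm28050* (chr5:106557739-106574718) measured 23.3 and 23.1 against 0.802 and 1.79 FPKM (3.43, SE 0.34), and *Gm2694*, 203 bases from the synaptic organiser gene *Cbln1* on the opposite strand, 26 and 19.2 against 2.67 and 2.03 (2.81). *Gm21984*, which overlaps *Asphd1*, and *D930028M14Rik*, which overlaps the transcription factor gene *Pou2f2*, completed the 5 largest with 2.66 and 2.40.

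On the lower side *Dlx1as*, antisense to *Dlx1* (chr2:71532784-71537891), measured 1.63 and 2.52 against 59.6 and 82.4 FPKM (-4.55, SE 0.25), and the coding table lists an entry of the same name (-4.20). *Dlx6os1* beside *Dlx6* appeared with 2 transcripts (-3.34 and -3.03). *Gm28872* was listed at 0 in both Ebf2-EGFP+ libraries and at 12.4 and 6.1 FPKM in the Ebf2-EGFP- libraries, and *2010204K13Rik* differed by -2.71. The library kit is not stated to keep strand, so fragments of a lncRNA and of a gene that overlaps it on the other strand cannot be told apart.

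The lncRNAs mostly moved with their nearest coding gene. Of 200 transcripts 196 had a position in GENCODE M21, and 90 called ones had a nearest coding gene in the coding table. In 79 of the 90 that gene was called in the same direction, in 3 in the opposite direction and in 8 not at all. The neighbour was higher for 45 of 49 higher lncRNAs and lower for 34 of 41 lower ones. In the whole coding table, 36.8% of genes were higher and 44.9% lower. Called transcripts without a neighbour in that table are not counted. The 200 transcripts carry 192 symbols, so a symbol can count more than once. The 3 were *Gm15559* (0.76) beside *Pus1* (-1.16) and *AI849053* (-0.86) and *AW047730* (-1.07) beside *Mef2d* (0.94). Where the gene bodies overlapped the direction was shared in 46 of 49 cases, 37 of the 49 pairs being on opposite strands, and where they did not overlap in 33 of 41. Pairs without overlap included *Lhx1os* (2.21) and *Lhx1* (3.40), 149 bases apart, *Gm20675* (1.13) and *Ebf2* (4.76), 163 bases apart, and *Gm14204* (-2.41) and *Slc32a1* (-2.34), 44 bases apart. All pairs named here were chosen after their values were seen.

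**Figure D4:**
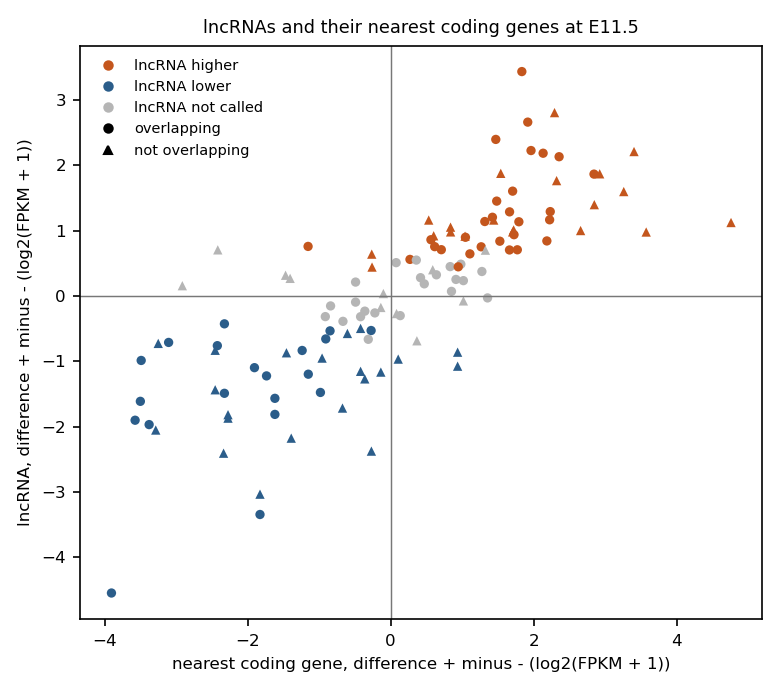
Difference between the populations at E11.5 for each lncRNA transcript (vertical axis) and its nearest coding gene (horizontal axis), both in log2(FPKM + 1), for lncRNAs whose nearest coding gene is in the coding table. Circles are pairs with overlapping gene bodies and triangles pairs without, coloured by the call of the lncRNA. Most called lncRNAs lie in the upper right and lower left, 79 of 90 with a neighbour called in the same direction.

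The differences of E11.5 were then set against those of E13.5, when *Tbr1*-expressing cortical plate neurons are also born. Only differences between the populations were compared. Which population changed between stages, and why, was not tested. The difference was more positive at E11.5 in 952 coding genes (19.6% of the table) and more negative in 757 (15.6%). All 5 preplate markers were among the former, with the difference larger by 4.73 for *Tbr1* (SE 0.28, limma adjusted p = 1.65e-06), 4.09 for *Nxph4*, 3.34 for *Nhlh2*, 3.27 for *Ebf2* and 2.02 for *Calb2*. *Slc17a6* had the largest change among the named genes, from 4.87 at E11.5 to -0.13 at E13.5. Of the proneural cascade 17 of 20 members were more positive at E11.5 and 0 more negative in the limma fit (19 and 0 at an unadjusted p under 0.05). The median of that list was 1.16 at E11.5 and -0.82 at E13.5, and *Eomes* turned from 3.72 to -1.15.

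The neuronal cytoskeleton (17 of 39 more positive, 0 more negative, 24 and 0 unadjusted) and the layer and neuronal transcription factors (26 of 50 and 3) also held many genes that were more positive at E11.5. Of 45 DNA replication genes 0 passed the limma test in either direction, 0 being more positive and 3 more negative at an unadjusted p under 0.05, with medians of -1.98 at E11.5 and -1.86 at E13.5. Of 51 mitosis genes 2 were more positive and 0 more negative (8 and 0 unadjusted). Of 30 radial glia genes 6 were more positive and 4 more negative, shares close to the 19.6% and 15.6% of the whole table. The hem, choroid plexus and septum list was more negative at E11.5 in 19 of 21 members, with medians of -1.21 at E11.5 and -0.06 at E13.5, and the erythroid list in 6 of 9. The embryonic globins *Hbb-y* (-0.67) and *Hba-x* (-0.19) and *Ttr* (-0.66) had small differences at E13.5, while *Dlx2* stayed at -3.22.

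**Figure D5:**
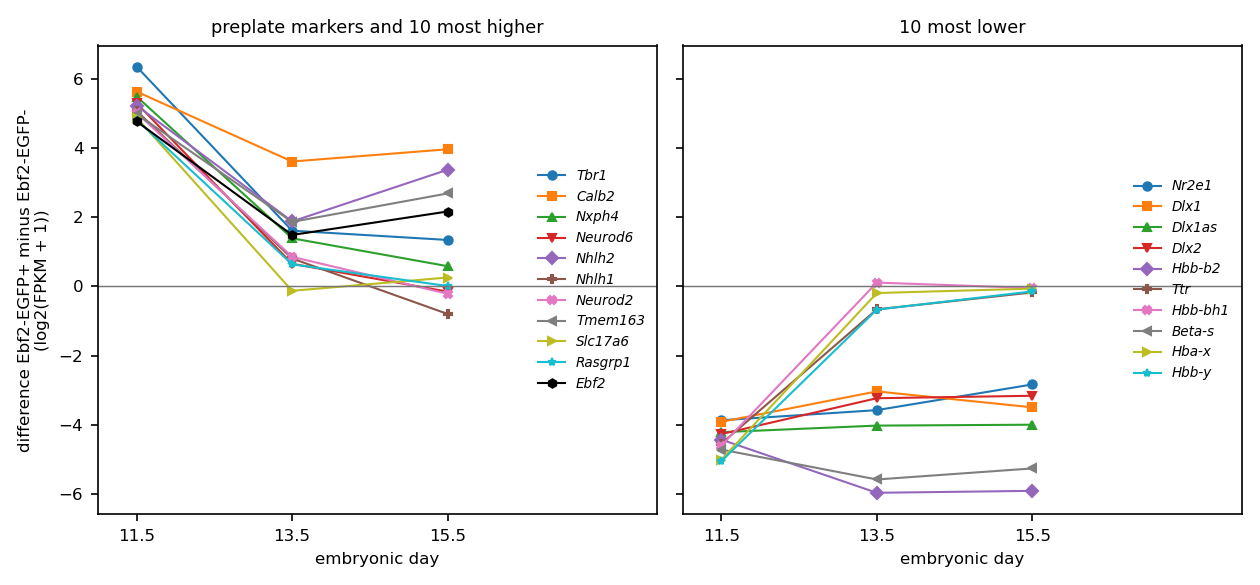
Difference between the populations at each of the 3 stages, in log2(FPKM + 1), for the preplate markers with the 10 most higher genes (left, 11 genes) and for the 10 most lower genes (right). Each line is 1 gene. At E11.5 the 11 genes on the left lie between 4.76 and 6.34, and at E13.5 *Calb2* alone stays above 3.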

How the data were processed

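Ebf2-EGFP+ and Ebf2-EGFP- cells of dissected cortex were profiled by RNA-seq at 3 stages, with 2 biological replicates each by the study's methods. The deposited FPKM values were made by the authors, per the submitters' notes with TopHat2 2.0.8b, Cufflinks 2.2.0 and Cuffdiff on mm10, and both tables hold features they selected as differential on these libraries. The tables' own columns of fold changes and p-values from the authors' comparisons were not used. No counts could be recovered: of genes under 0.15 FPKM in both libraries, 37.1% of 70 in Ebf2-EGFP+ and 50% of 72 in Ebf2-EGFP- lay on a whole-read grid within 1%, so the depth of each library was not derived and no counting interval is given.

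Values were transformed to log2(FPKM + 1), which understates changes of low genes, and fitted in limma 3.58.1 (R 4.3.3) as 6 groups over 12 libraries, with the variance trend, and p-values were adjusted by Benjamini-Hochberg over all features of a table for each comparison. The E11.5 contrast used its 4 libraries, and the stage comparison was an interaction of E11.5 with E13.5. The procedure was tested on simulated data. Alternatives were a pseudocount of 0.1, median-of-ratios scaling, a mean of at least 1 FPKM, no variance trend, only the compared groups, a replicate block, a threshold of 0.01, a 2-fold minimum and leaving out each library. Same-numbered libraries deviated together, with correlations of 0.43, 0.53 and 0.43 at the 3 stages for coding genes and 0.27, 0.38 and 0.44 for lncRNAs. The numbers were therefore taken to pair the libraries in the replicate block. The reported fit did not use this pairing, so the calls and list counts given are those of the unpaired fit. With the block, more members of some lists were called, such as 28 of 31 axon guidance ligands and 31 of 43 forebrain patterning factors.

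Genes named in the text were the 5 preplate markers, the 10 coding genes and 5 lncRNAs with the largest called difference each way, up to 4 called members of each list each way, members needed for small counts, and members paired with these by paralogy or role. The 10 coding genes and 5 lncRNAs each way were taken only from features whose populations did not overlap. Genes named for their known role beyond this rule (such as *Myt1l*, *Scrt2*, *Bcl11b*, *Emx1*, *Pax6*, *Vim*, *Ldha*, *Cdkn1c*, *Dpysl2* and *Camk2b*) were chosen after their values were seen. Some list members are counted but not reported by name here. The lists and members were chosen with earlier results of these data known. Positions of lncRNAs came from GENCODE M21 and promoters from RefSeq, both on GRCm38.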

Additional observations from a re-analysis of the deposited data

Results flagged for a closer look

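The difference between the populations was itself different at E11.5 and E13.5, by the interaction term of the limma fit, for 17 of the 21 genes that were preplate markers or among the 10 largest differences in each direction. For 11 genes it was more positive at E11.5. The excess on the log2 scale was 4.99 for *Slc17a6*, 4.73 for *Tbr1*, 4.63 for *Neurod6*, 4.25 for *Nhlh1*, 4.17 for *Rasgrp1* and 4.15 for *Neurod2*. It was 4.09 for *Nxph4*, 3.34 for *Nhlh2*, 3.27 for *Ebf2*, 3.11 for *Tmem163* and 2.02 for *Calb2*. For the other 6 genes the difference was more negative at E11.5, with -0.88 for *Dlx1*, -1.03 for *Dlx2*, -3.87 for *Ttr*, -4.37 for *Hbb-y*, -4.70 for *Hbb-bh1* and -4.80 for *Hba-x*. These genes were chosen for their size at E11.5, so a smaller difference at another stage is not independent of that choice, and the cause was not tested.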

How the results depend on the processing

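Of 238 named features, 201 kept their direction and call under all alternatives and 221 under all but the stricter threshold and the 2-fold minimum, and 0 were reversed. With the 2-fold minimum the counts at E11.5 were 1040 higher and 1497 lower coding genes (from 1788 and 2184) and 39 higher and 41 lower lncRNAs (from 80 and 64). For the comparison of E11.5 with E13.5, that minimum left 575 coding genes more positive and 409 more negative (from 952 and 757), and a threshold of 0.01 left 548 and 398. Leaving out 1 library gave 503 to 748 more negative genes, the lowest without E11.5 Ebf2-EGFP+ replicate 1, and 661 to 887 more positive ones. With the replicate block, pairing libraries of the same number, 1919 coding genes were higher and 2297 lower, and 1426 and 1092 differed between stages. The block lost no call among these 238 features, all called in the reported fit, and gave a call to *Neurog1*, *Neurog2*, *Hes6*, *Zic1*, *Dab1*, *Lrp8*, *Slit2* and *Dpf2*, which are named as not called. FPKM alone gives no counting error for low genes.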

Other observations

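A pair of homeodomain factors outside the lists, chosen after their values were seen, was higher in Ebf2-EGFP+ cells at E11.5. *Otp*, known from neuroendocrine neurons of the hypothalamus, measured 29 and 16.6 FPKM in Ebf2-EGFP+ and 0.271 and 0.224 in Ebf2-EGFP- libraries, a log2 difference of 4.2 (SE 0.20). *Uncx*, known from somites and parts of the brain, measured 34.4 and 27.3 against 0.686 and 0.802 FPKM (4.18, SE 0.19). At E13.5 the differences were 0.13 for *Otp* and 0.17 for *Uncx*. In both genes the populations did not overlap at E11.5, as in most of the coding table.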
